A study of Mus musculus with 35 samples.

Results

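The genes described here are those of the major histocompatibility complex (MHC), which in the mouse carry names starting with H2-, together with the named partners of antigen presentation Cd74, B2m, Tap1, Tap2, Tapbp and Nlrc5. They were chosen by a rule on names, with earlier results of these data known. Of the 11982 gene names in the deposited RNA-seq table, 36 met the rule. Of these, 20 were class I genes, 8 were class II genes, 5 were partners of class I, 1 was the class II partner Cd74, and 2, H2-Ke2 and H2-Ke6, lie beside the MHC genes and encode no MHC protein. All 36 passed the filter on low values, a mean of at least 0.5 RPKM (a read count scaled to transcript length and library size). Ciita, Cd80, Cd86 and Cd40 also belong to the rule and were not analysed here, since the table holds only genes that exceed an RPKM of 1 in at least 1 library.

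The study asked how loss of the histone demethylase JMJD1B, the product of Kdm3b, changes gene expression in hematopoietic stem and progenitor cells (HSPCs). Polyadenylated RNA of bone marrow HSPCs was sequenced from WT mice (2 libraries) and from JMJD1B-/- mice (2 libraries), both on the 129P2xC57BL/6J background. The knockout is a gene trap present throughout the animal, so the other cells of the marrow carried it as well. The labels give neither the age nor the sex of single animals, and p-values measure only the spread between these libraries.

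MHC class I molecules sit on almost all nucleated cells. They consist of a heavy chain and beta-2-microglobulin, and they show peptides that the transporter TAP has moved from the cytosol into the endoplasmic reticulum. MHC class II molecules are made mainly by dendritic cells, macrophages and B cells. Their chains are held by the invariant chain (Cd74) until the endosome, where H2-DM exchanges the last remnant of the invariant chain for a peptide and H2-O restrains H2-DM. Transcription of both classes relies on a shared promoter module, in which an X box bound by the RFX complex and a Y box bound by NF-Y recruit the coactivators CIITA for class II and NLRC5 for class I.

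The libraries differed in depth, which was estimated at 17500000 reads for WT replicate 1, 24600000 for WT replicate 2, 6100000 for JMJD1B-/- replicate 1 and 21000000 for JMJD1B-/- replicate 2, so JMJD1B-/- replicate 1 was the shallowest. On a transcript of 1 kb, 3 reads stood for 0.171 and 0.122 RPKM in the WT libraries and for 0.491 and 0.143 RPKM in the JMJD1B-/- libraries, floors that cover counting error only. Kdm3b itself had 31.0 and 24.3 RPKM in WT and 4.00 and 4.63 RPKM in JMJD1B-/- HSPCs, a log2 fold change of −2.65 (limma adjusted p = 0.0314). Xist, transcribed from the inactive X chromosome of females, reached 332 RPKM in WT replicate 2 and did not exceed 0.051 RPKM in the other libraries. Summed over 11 T and NK cell markers (of 12, Cd4 was not analysed here), JMJD1B-/- replicate 1 had 104 RPKM and the other libraries 21.5 to 42.6 RPKM. The 12 stem and progenitor markers, all listed, summed to 466 and 419 RPKM in WT and to 284 and 428 RPKM in JMJD1B-/-. Of them 11 had a log2 fold change below 0 (median −0.71) and 4 were lower at an unadjusted p under 0.05, namely Cd34 (37.8% of the WT mean), Gata2, Mecom and Meis1. Without JMJD1B-/- replicate 1, Gata2 went from −0.77 to −0.41 and Meis1 from −0.62 to −0.30 and neither was called, Gata2 and Meis1 were not called without WT replicate 1, Meis1 was not called without WT replicate 2, and Mecom was not called without either WT library. Kit had 66.9 and 62.5 RPKM in WT and 51.6 and 92.7 RPKM in JMJD1B-/-, on either side of the WT values.

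Differences between genotypes were tested with limma on log2(RPKM + 0.1), a scale that understates the change of genes with few reads, and were adjusted over the 11863 genes that passed the filter. An exact permutation test of 2 against 2 libraries cannot give a two-sided p below 0.333. At an unadjusted p under 0.05, 3 members were lower in JMJD1B-/- HSPCs (H2-DMb2, H2-DMb1 and H2-M3), 1 was higher (H2-Ke2) and 32 were not called. Over all genes tested, 6.33% were called lower and 3.81% higher, or 10.1% in either direction, so 3 and 1 of 36 members are close to the background. No member had an adjusted p under 0.05 in limma (0.0421% of all genes did), where the lowest was 0.258, or in the gene-by-gene test. With a library left out, the counts changed for the members and for all genes, as given in the closing section. The genotypes did not overlap in 8 members, 4 of them below WT and 4 above, beside 22.7% and 20.1% of all genes. The median log2 fold change was −0.02 over the members and −0.02 over all genes. The class II genes stood lower than that, with a median of −0.88 and 7 of 8 log2 fold changes below 0 (53.0% of all genes), whereas the class I genes had a median of 0.06. The class II median was −0.48 without WT replicate 2 and −0.24 without JMJD1B-/- replicate 2.

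**Figure D1:**
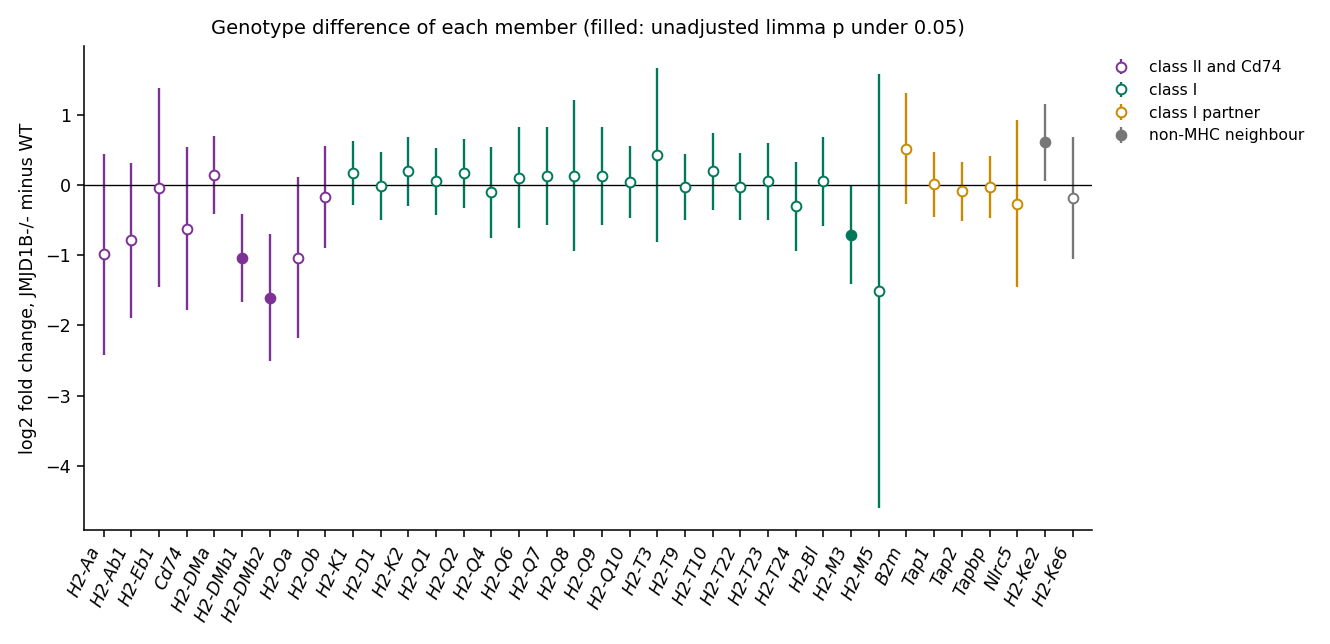
Log2 fold change of each of the 36 members, JMJD1B-/- minus WT, on the log2(RPKM + 0.1) scale (vertical axis) for each gene (horizontal axis). Points are limma estimates from 2 libraries per genotype, bars are 95% confidence intervals, and filled points have an unadjusted p under 0.05. H2-DMb2 and H2-DMb1 lie at −1.61 and −1.04, most class I genes lie near 0, and H2-M5, at the lowest level, has the widest interval.

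H2-DM is a heterodimer, and in the mouse its beta chain is encoded by a pair of adjacent genes. H2-DMb1 had 8.64 and 8.05 RPKM in WT and 4.03 and 3.98 RPKM in JMJD1B-/- HSPCs. Both JMJD1B-/- libraries were below both WT libraries, with means of 8.35 ± 0.417 RPKM (SD, n = 2) in WT and 4.00 ± 0.0335 RPKM (SD, n = 2) in JMJD1B-/-, and the log2 fold change was −1.04 (SE 0.27, limma unadjusted p = 0.00539, adjusted p = 0.286). H2-DMb2 had 6.52 and 4.75 RPKM in WT and 1.45 and 2.14 RPKM in JMJD1B-/- HSPCs. The groups again did not overlap, the JMJD1B-/- mean was 31.8% of the WT mean, and the log2 fold change was −1.61 (SE 0.39, limma unadjusted p = 0.00388, adjusted p = 0.258). In JMJD1B-/- replicate 1, H2-DMb2 was a few times above the level of 3 reads. With each library left out in turn the log2 fold change stayed between −1.09 and −0.99 for H2-DMb1 and between −1.87 and −1.34 for H2-DMb2. The p of H2-DMb1 was 0.0759 without WT replicate 1 and 0.0537 without WT replicate 2, and that of H2-DMb2 was 0.0792 without WT replicate 1.

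The partner of both beta chains was not called. H2-DMa, the alpha chain, had 10.8 and 8.77 RPKM in WT and 10.5 and 11.1 RPKM in JMJD1B-/- HSPCs. The groups overlapped and the log2 fold change was 0.15, with a 95% interval from −0.40 to 0.70, which lies above the estimates of both beta chain genes. Whether H2-DMa differed from its partners was not tested. The beta chain genes are similar in sequence, and how reads that match both were counted is not given in the sources used here, so their split is uncertain. The ratio of H2-DMb1 to H2-DMb2 was 1.32 and 1.70 in WT and 2.78 and 1.86 in JMJD1B-/-. Added up, the pair had 15.2 and 12.8 RPKM in WT and 5.47 and 6.12 RPKM in JMJD1B-/- HSPCs, so the sum too was lower in both JMJD1B-/- libraries.

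The promoters of the pair are printed here because they carry the X and Y boxes named above. The windows of 60 bases were read from RefSeq promoters of GRCm38.p6, a build other than the mm9 named for the files, and end 10 bases after the Y box. Capitals mark the Y box (ATTGG) and, where its letters were found 25 to 35 bases before the Y box, the core of the X box (ACNNATG).
H2-DMb1, chr17:34153085-34153144, plus strand: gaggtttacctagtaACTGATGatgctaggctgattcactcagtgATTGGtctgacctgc
H2-DMb2, chr17:34145114-34145173, plus strand: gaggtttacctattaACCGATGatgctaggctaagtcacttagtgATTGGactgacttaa
H2-Oa, chr17:34092291-34092350, plus strand: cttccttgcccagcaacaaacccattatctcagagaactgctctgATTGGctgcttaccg
H2-Ob, chr17:34238803-34238862, plus strand: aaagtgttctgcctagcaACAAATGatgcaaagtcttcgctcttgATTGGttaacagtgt
H2-Aa, chr17:34287857-34287916, minus strand: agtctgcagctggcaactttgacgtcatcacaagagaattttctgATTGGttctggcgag
The windows of H2-DMb1 and H2-DMb2 were identical at 51 of 60 positions. Both hold the X box core and the Y box, with starts 30 bases apart.

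H2-O, the inhibitor of H2-DM, is also a heterodimer. Its alpha chain gene H2-Oa had 3.86 and 3.44 RPKM in WT and 2.64 and 1.12 RPKM in JMJD1B-/- HSPCs. The groups did not overlap, the log2 fold change was −1.03 (SE 0.49), and the test was not passed (limma unadjusted p = 0.0705, adjusted p = 0.529). The size rested on JMJD1B-/- replicate 2: without it the log2 fold change was −0.45, and without JMJD1B-/- replicate 1 it was −1.62 (unadjusted p = 0.00201). H2-Ob, the beta chain, had 7.46 and 5.79 RPKM in WT and 7.10 and 4.82 RPKM in JMJD1B-/- HSPCs. Its groups overlapped, with a log2 fold change of −0.17 and a 95% interval from −0.89 to 0.56.

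The classical class II molecule I-A is formed by the products of H2-Aa and H2-Ab1. H2-Aa had 5.47 and 10.02 RPKM in WT and 7.25 and 1.86 RPKM in JMJD1B-/- HSPCs. WT replicate 2 was the highest and JMJD1B-/- replicate 2 the lowest, the groups overlapped, and the log2 fold change was −0.98 (SE 0.61, limma adjusted p = 0.625). H2-Ab1 had 6.42 and 10.8 RPKM in WT and 2.997 and 7.65 RPKM in JMJD1B-/- HSPCs, so here JMJD1B-/- replicate 1 was the lowest, and the log2 fold change was −0.78 (SE 0.47, limma adjusted p = 0.616). The chains of this molecule were thus ordered differently among the libraries. Each of them passed the unadjusted limma test in 1 reduced set: H2-Aa without JMJD1B-/- replicate 1 (log2 fold change −1.94, unadjusted p = 0.000421) and H2-Ab1 without JMJD1B-/- replicate 2 (−1.45, unadjusted p = 0.00136). Without the other JMJD1B-/- library the log2 fold changes were −0.03 and −0.12. With the replicate number as a block, both passed in limma (unadjusted p = 0.0482 for H2-Aa and unadjusted p = 0.0357 for H2-Ab1). Without the block the limma unadjusted p was 0.149 and 0.138, and the labels state no pairing by number.

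H2-Eb1, the beta chain of the second class II molecule I-E, was the lowest of the class II genes, with 1.14 and 2.56 RPKM in WT and 2.44 and 1.13 RPKM in JMJD1B-/- HSPCs. The groups overlapped and the 95% interval of its log2 fold change ran from −1.46 to 1.39, so differences within that range were not excluded. Cd74, the invariant chain, had 7.54 and 20.8 RPKM in WT and 11.2 and 5.90 RPKM in JMJD1B-/- HSPCs. Its highest and lowest libraries were the second replicate of each genotype, as for H2-Aa and H2-Eb1, and its log2 fold change was −0.62 (SE 0.50, limma adjusted p = 0.702). The direction depended on 1 library, since it was 0.10 without WT replicate 2, and the gene passed the unadjusted limma test without WT replicate 1 (−1.35, unadjusted p = 0.0289) and without JMJD1B-/- replicate 1 (−1.07, unadjusted p = 0.0386).

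**Figure D2:**
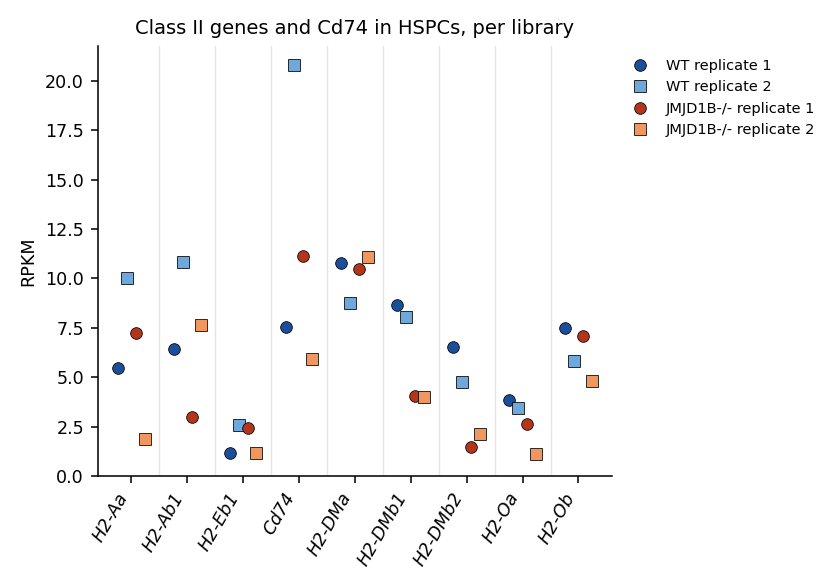
RPKM (vertical axis, linear from 0) of the 8 class II genes and Cd74 (horizontal axis) in the 2 WT and 2 JMJD1B-/- libraries, 1 point per library. Both JMJD1B-/- points lie below both WT points for H2-DMb1, H2-DMb2 and H2-Oa, the points of H2-DMa lie together between 8.77 and 11.1 RPKM, and Cd74 reaches 20.8 RPKM in WT replicate 2.

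The genes whose library pattern was most like that of H2-Aa, by distance between centred log2(RPKM + 0.1) values over the 4 libraries and among genes with a mean of at least 5 RPKM, were Dusp5, Tespa1, Ctss, Pira11 and Rgs2. The closest, Dusp5, had 5.84 and 10.9 RPKM in WT and 7.25 and 1.90 RPKM in JMJD1B-/- HSPCs, a distance of 0.0983. The others had distances of 0.339 to 0.424.

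Markers of the cell types that make class II molecules were listed beside these genes. The 9 dendritic cell markers analysed (of 11) summed to 67.6 and 92.5 RPKM in WT and 59.2 and 39.9 RPKM in JMJD1B-/- libraries, and Clec9a, Siglech, Ccr9 and Flt3 were lower at an unadjusted p under 0.05. Log2 fold changes were below 0 in 8 of the 9 (median −1.30), and the 5 that were not called had −2.06 (Cd209a), −0.82 (Itgax), −0.39 (Cd7), −0.20 (Tcf4) and 0.55 (Zbtb46). Flt3 had a log2 fold change of −1.84, which shrank to −0.64 when JMJD1B-/- replicate 2 was left out. Without WT replicate 2, Siglech went from −1.41 to −0.80, and none of the 4 was called. Ccr9 and Flt3 were not called without WT replicate 1 either. For monocytes and macrophages, the 7 markers analysed (of 13) summed to 95.1 and 91.5 RPKM in WT and 87.9 and 24.9 RPKM in JMJD1B-/-, with Csf1r and Ly6c2 lower. The groups of Ly6c2 overlapped and its log2 fold change was −1.09, or −0.51 without JMJD1B-/- replicate 2 (limma unadjusted p = 0.16). Csf1r had −1.80, or −1.15 without JMJD1B-/- replicate 2, and was not called without WT replicate 1 (limma unadjusted p = 0.0543). Emr1 and C1qb, markers of macrophages, were not called and had log2 fold changes of 0.95 and 0.85. In WT, Flt3, which progenitors also express, and Ccr2 were the most abundant of the dendritic and the monocyte-macrophage list, with 3.37 and 8.205 RPKM in JMJD1B-/- replicate 2 beside 18.4 and 46.7 RPKM in JMJD1B-/- replicate 1. Only 3 of 11 B cell markers were analysed here, and they summed to 4.81 and 5.21 RPKM in WT and 3.49 and 0.98 RPKM in JMJD1B-/-, with Cd79b lower. Cd79b was not called without WT replicate 1 (limma unadjusted p = 0.291), WT replicate 2 (0.0907) or JMJD1B-/- replicate 2 (0.0542). The defining genes Cd79a, Ms4a1 and Pax5 were not analysed here. For all 3 lists JMJD1B-/- replicate 2 had the lowest sum, as it had the lowest H2-Aa, H2-Eb1, H2-DMb1, H2-Oa, H2-Ob and Cd74. By contrast, H2-Ab1 and H2-DMb2 were lowest in JMJD1B-/- replicate 1, and H2-DMa was highest in JMJD1B-/- replicate 2. In these bulk libraries, fewer cells of a type and less RNA per cell cannot be told apart, and the part of such cells in the class II values was not tested.

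The classical class I genes were expressed at far higher levels than the class II genes. Not all class I genes were, with WT means of 0.755 RPKM for H2-M5 and 1.27 RPKM for H2-T3. H2-K1 and H2-D1, the classical heavy chains, had WT means of 206 and 169 RPKM, above 98.4% and 98.1% of the genes in the table, and B2m, their shared light chain, had 205 RPKM. H2-K1 had 205 and 206 RPKM in WT and 264 and 204 RPKM in JMJD1B-/- HSPCs, with a log2 fold change of 0.17 and a 95% interval from −0.29 to 0.63. H2-D1 had 167 and 172 RPKM in WT and 198 and 143 RPKM in JMJD1B-/- HSPCs, with a log2 fold change of −0.01 and an interval from −0.49 to 0.48. In both, JMJD1B-/- replicate 1 was the highest and JMJD1B-/- replicate 2 the lowest library, and the WT libraries lay between them.

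B2m had 157 and 253 RPKM in WT and 389 and 210 RPKM in JMJD1B-/- HSPCs, a log2 fold change of 0.52 (SE 0.34, limma adjusted p = 0.633). That value depended on single libraries, since it was 0.08 without JMJD1B-/- replicate 1, 0.18 without WT replicate 1, 0.86 without WT replicate 2 and 0.96 without JMJD1B-/- replicate 2 (unadjusted p = 0.00487). The peptide transporter and its bridge to class I differed little among the libraries. Tap1 lay between 27.1 and 32.6 RPKM, Tap2 between 30.9 and 35.3 RPKM, and Tapbp, which encodes tapasin, between 24.9 and 28.1 RPKM. Their log2 fold changes were 0.01, −0.09 and −0.02, and the 95% intervals of the 3 together ran from −0.50 to 0.47. Nlrc5, the class I coactivator, had 7.19 and 11.4 RPKM in WT and 13.2 and 4.29 RPKM in JMJD1B-/- HSPCs. It was highest in JMJD1B-/- replicate 1 and lowest in JMJD1B-/- replicate 2, and its log2 fold change changed from −0.26 to −1.06 without the former (unadjusted p = 0.00741) and to 0.54 without the latter.

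**Figure D3:**
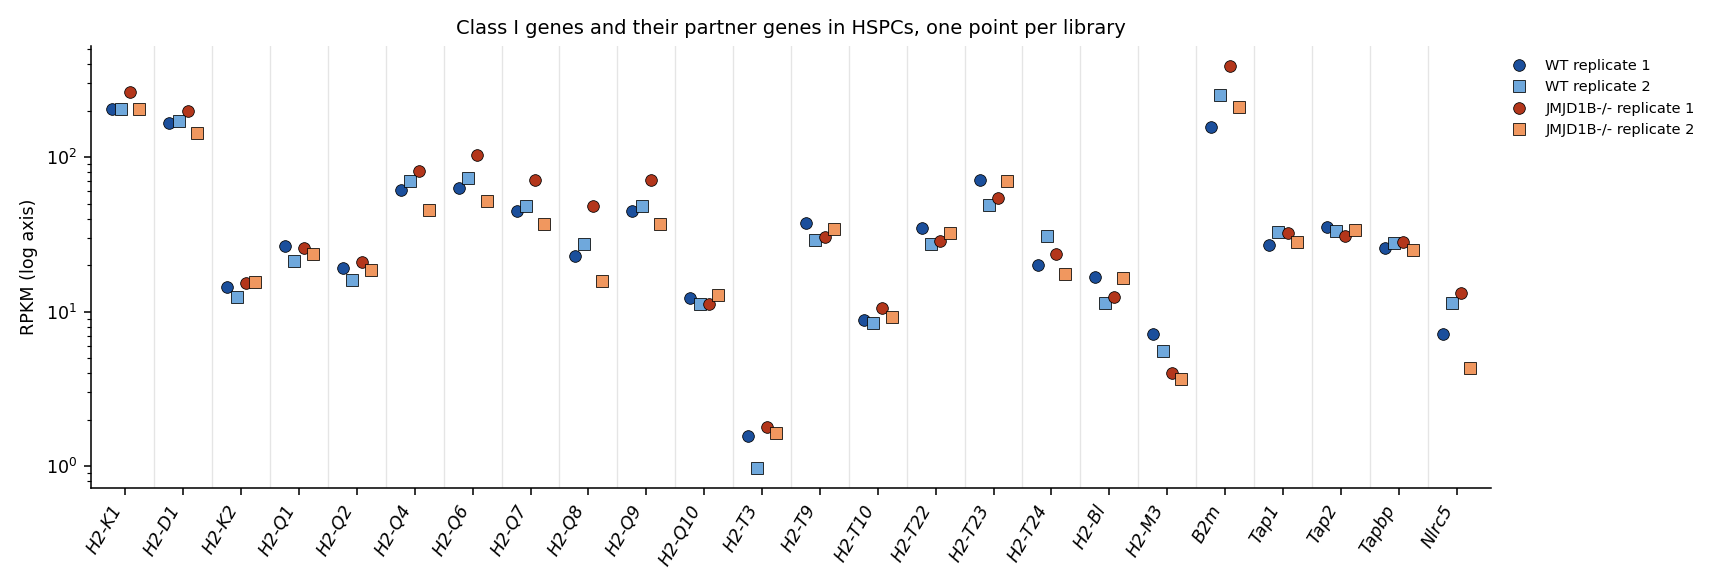
RPKM (vertical axis, log axis) of 19 class I genes and 5 class I partner genes (horizontal axis) in the 2 WT and 2 JMJD1B-/- libraries, 1 point per library. H2-M5, which is listed at 0 in 1 library, is left out. H2-K1, H2-D1 and B2m lie above 100 RPKM, Tap1, Tap2 and Tapbp show little spread, and the groups are apart downward only for H2-M3.

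Among the nonclassical class I genes, H2-M3, which presents N-formylated peptides, was the only one called. It had 7.17 and 5.56 RPKM in WT and 4.00 and 3.65 RPKM in JMJD1B-/- HSPCs. The groups did not overlap, and the log2 fold change was −0.71 (SE 0.30, limma unadjusted p = 0.0482, adjusted p = 0.489). The p was 0.0502 with a pseudocount of 1, 0.0678 after quantile normalization, 0.0652 in the gene-by-gene test, 0.0831 with the replicate block and 0.325, 0.111 and 0.0548 without WT replicate 1, WT replicate 2 and JMJD1B-/- replicate 2. The genes H2-K2, H2-T10 and H2-T3 were higher in each JMJD1B-/- library than in any WT library. Their log2 fold changes were 0.20, 0.20 and 0.43, and the lowest of their limma adjusted p-values was 0.777. With a library left out, the log2 fold changes ranged from 0.09 to 0.31 for H2-K2, from 0.10 to 0.29 for H2-T10 and from 0.11 to 0.76 for H2-T3. H2-T10 belongs with H2-T22 to the heavy chains that bind no peptide and are recognised by gamma-delta T cells, and it had 8.87 and 8.41 RPKM in WT and 10.6 and 9.29 RPKM in JMJD1B-/- HSPCs. H2-T3, the thymus leukemia antigen, had 1.57 and 0.966 RPKM in WT and 1.78 and 1.63 RPKM in JMJD1B-/- HSPCs. H2-M5 had 0.438 and 1.07 RPKM in WT, was listed at 0 in JMJD1B-/- replicate 1, where 3 reads on 1 kb would give 0.491 RPKM, and had 0.677 RPKM in JMJD1B-/- replicate 2.

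In the H2-Q region, 5 class I genes (H2-Q4, H2-Q6, H2-Q7, H2-Q8 and H2-Q9) differed more between the JMJD1B-/- libraries than between the genotypes. H2-Q8 had 22.9 and 27.2 RPKM in WT and 48.0 and 15.7 RPKM in JMJD1B-/- HSPCs. H2-Q6 had 63.0 and 73.5 RPKM in WT and 103 and 52.2 RPKM in JMJD1B-/- HSPCs. H2-Q4 had 61.0 and 69.8 RPKM in WT and 81.2 and 45.5 RPKM in JMJD1B-/- HSPCs. In all 3 of them JMJD1B-/- replicate 1 was highest, followed by WT replicate 2, WT replicate 1 and JMJD1B-/- replicate 2. The same order held in 9 of 36 members (H2-K1, H2-D1, H2-Q4, H2-Q6, H2-Q7, H2-Q8, H2-Q9, Tapbp and Nlrc5) and in 2.55% of all genes tested. H2-Q7 and H2-Q9 among them kept an almost constant ratio, and that of H2-Q6 to H2-Q7 lay between 1.41 and 1.53. The 9 are therefore not counted as independent. The summed T and NK cell markers stood in this order too, as did 3 of the 11 single markers, and JMJD1B-/- replicate 1 was the highest library in 10 of the 11. Cd3e and Cd3g were higher and Nkg7 was lower (41.0% of the WT mean) at an unadjusted p under 0.05, and the log2 fold changes of Cd3e and Cd3g went from 1.70 and 3.03 to 0.83 and 1.66 without JMJD1B-/- replicate 1. Cd3e was not called without that library or without either WT library. Il7r alone gave 39.4 of the 104 RPKM in JMJD1B-/- replicate 1. The part of T and NK cells in the class I values was not tested. Log2 fold changes of these 5 genes lay between −0.10 and 0.14. Without JMJD1B-/- replicate 2, H2-Q6, H2-Q7, H2-Q8 and H2-Q9 were higher in JMJD1B-/- (log2 fold changes 0.60 to 0.94), and without JMJD1B-/- replicate 1, H2-Q4 and H2-Q8 were lower (−0.52 and −0.67).

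Another order was shared by 4 genes of the H2-T region. H2-T23, which encodes Qa-1 and is the ligand of the inhibitory receptor CD94/NKG2A, had 70.8 and 49.2 RPKM in WT and 54.0 and 69.7 RPKM in JMJD1B-/- HSPCs. WT replicate 1 and JMJD1B-/- replicate 2 were high, and WT replicate 2 and JMJD1B-/- replicate 1 were low. This order held for H2-T9, H2-T22, H2-T23 and H2-Bl, and in 1.99% of all genes tested. The ratios of H2-T9 to H2-T22 and of H2-T23 to H2-Bl varied little, so the 4 genes are not counted as independent. In these 4 genes the log2 fold changes lay between −0.02 and 0.06. H2-T24 did not follow them, with 20.0 and 31.0 RPKM in WT and 23.4 and 17.4 RPKM in JMJD1B-/- HSPCs. The remaining class I genes were flat, with log2 fold changes of 0.06 for H2-Q1 (21.1 to 26.4 RPKM), 0.17 for H2-Q2 (16.0 to 21.0 RPKM) and 0.04 for H2-Q10 (11.1 to 12.8 RPKM).

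**Figure D4:**
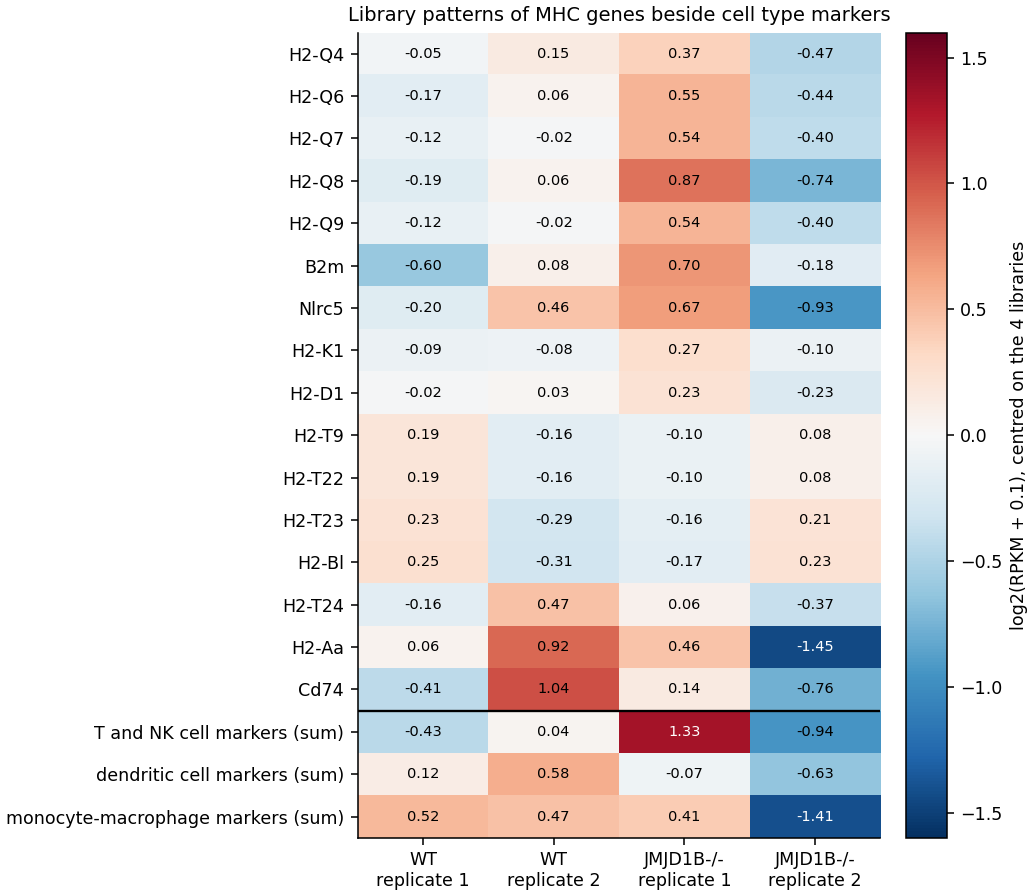
Values of log2(RPKM + 0.1) minus the mean of the 4 libraries (colour and printed numbers) for 16 MHC and partner genes and for the summed markers of 3 cell types (rows) in each library (columns). The 5 H2-Q genes plotted and the T and NK cell markers are highest in JMJD1B-/- replicate 1 (0.37 to 0.87 and 1.33), H2-T9, H2-T22, H2-T23 and H2-Bl are highest in WT replicate 1, and H2-Aa and Cd74 are highest in WT replicate 2.

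Some of these genes could not be told apart by their values. The ratio of H2-Q7 to H2-Q9 was 0.990 to 0.991 in the 4 libraries, and that of H2-T9 to H2-T22 was 1.064 to 1.066. A ratio that varied by no more than 1% over the 4 libraries was found in 2 of 666 pairs of genes, taken from the members without H2-M5 and from Cd1d1 and Cd1d2, and in 0.00118% of all pairs among 8312 genes with a mean of at least 5 RPKM. Some class I genes are close copies, but the sequences of these pairs were not compared here. H2-Q7 and H2-Q9, and H2-T9 and H2-T22, were each read as 1 measurement whose split between the genes is uncertain. The cause of the constant ratios was not tested. The ratio of H2-T23 to H2-Bl, between 4.21 and 4.33, varied little as well.

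The class I promoters are shown to set beside the class II windows, again with 60 bases from GRCm38.p6 that end 10 bases after the Y box, and with the X box core and the Y box in capitals.
H2-D1, chr17:35262973-35263032, plus strand: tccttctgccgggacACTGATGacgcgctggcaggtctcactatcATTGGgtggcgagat
H2-Q7, chr17:35439070-35439129, plus strand: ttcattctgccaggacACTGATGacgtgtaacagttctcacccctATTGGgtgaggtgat
H2-M3, chr17:37270168-37270227, plus strand: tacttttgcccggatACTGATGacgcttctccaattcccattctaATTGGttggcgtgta
The 250 bases before the start were searched in 32851 RefSeq promoters, which 23 members matched by symbol. Single motifs were searched on both strands. Members were counted by gene and the background by promoter. The Y box was found in 20 of the 23 and in 33.8% of all promoters, and the X box core in 14 and in 26.7%. An X box core followed by a Y box, with starts 25 to 35 bases apart, was searched on the strand of the gene only. It was found in 54 promoters in all (0.164%), and 9 members had it, namely H2-DMb1, H2-DMb2, H2-Ob, H2-Eb1, H2-D1, H2-Q4, H2-Q6, H2-Q7 and H2-M3. The letters and the spacing were chosen after the sequences were seen. Such matches are descriptions of the letters and not of binding.

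Of the non-MHC neighbours, 1 was called. H2-Ke2, which encodes a subunit of the prefoldin chaperone, had 23.2 and 23.8 RPKM in WT and 29.2 and 44.2 RPKM in JMJD1B-/- HSPCs. The genotypes did not overlap, and the log2 fold change was 0.61 (SE 0.24, limma unadjusted p = 0.0344, adjusted p = 0.459). It was 0.31 without JMJD1B-/- replicate 2 (limma unadjusted p = 0.148), and p was 0.137 and 0.117 without WT replicates 1 and 2, 0.0888 in limma without the trend and 0.177 in the gene-by-gene test. H2-Ke6, a hydroxysteroid dehydrogenase of fatty acid synthesis in mitochondria, had 19.0 and 22.3 RPKM in WT and 11.9 and 27.6 RPKM in JMJD1B-/- HSPCs. Its JMJD1B-/- libraries lay on either side of the WT libraries, with a log2 fold change of −0.19, which was −0.79 without JMJD1B-/- replicate 2 (unadjusted p = 0.00436).

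Other genes of antigen presentation were compared from lists of 52 tested genes, chosen with earlier results of these data known. Of these, 7 were lower, 0 were higher and 45 were not called by limma at an unadjusted p under 0.05, beside 6.33% lower and 3.81% higher among all genes, and 0 had an adjusted p under 0.05. The gene-by-gene test called 1 higher. With a library left out, the lower count changed, as did the counts over all genes. The median log2 fold change of the 52 genes was −0.27.

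The list for the supply of class I peptides held no called gene. Over its 14 genes the median log2 fold change was 0.02, and the values lay between −0.39 for Tapbpl and 0.37 for Psme3. The list holds the immunoproteasome subunits Psmb8, Psmb9 and Psmb10, with log2 fold changes of −0.33, −0.11 and −0.04, and the chaperones Calr and Canx, at −0.14 and 0.24.

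Of 9 genes of class II processing, 2 were lower and 7 were not called. Ctss, the cathepsin that trims the invariant chain, had 12.7 and 19.2 RPKM in WT and 11.7 and 3.14 RPKM in JMJD1B-/- HSPCs, a log2 fold change of −1.35 (SE 0.56, limma unadjusted p = 0.0443). Most of this came from JMJD1B-/- replicate 2, without which it was −0.42 (limma unadjusted p = 0.153), and p was 0.0709 and 0.214 without WT replicates 1 and 2. Ifi30, a lysosomal reductase that opens disulfide bonds of antigens, had 31.4 and 26.2 RPKM in WT and 19.4 and 10.2 RPKM in JMJD1B-/- HSPCs, a log2 fold change of −1.02 (SE 0.31, limma unadjusted p = 0.0125), which was −0.56 without JMJD1B-/- replicate 2 (unadjusted p = 0.0226) and had an unadjusted p = 0.0918 without WT replicate 1.

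Of 15 transcription factors and cofactors of MHC genes, 2 were lower and 13 were not called. Irf1, a factor that responds to interferon, had 10.4 and 12.2 RPKM in WT and 6.503 and 4.51 RPKM in JMJD1B-/- HSPCs, a log2 fold change of −1.04 (SE 0.28, limma unadjusted p = 0.00708, and 0.0858 without WT replicate 2). Irf8, a factor of monocyte and dendritic cell development, had 45.9 and 55.0 RPKM in WT and 33.3 and 9.34 RPKM in JMJD1B-/- HSPCs, a log2 fold change of −1.504 (SE 0.51, limma unadjusted p = 0.0203). It was −0.59 without JMJD1B-/- replicate 2 (limma unadjusted p = 0.0143), and p was 0.0572 and 0.0946 without WT replicates 1 and 2. The subunits of RFX and NF-Y, which bind the X and Y boxes, were not called. Their log2 fold changes were −0.23 for Rfx5, 0.03 for Rfxap, −0.67 for Rfxank, 0.19 for Nfya, 0.19 for Nfyb and 0.40 for Nfyc. None of the 4 genes of the interferon gamma receptor and its kinases was called, with a median log2 fold change of −0.43.

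The MHC-like genes outside the MHC held the member of these lists with the lowest adjusted p. Cd1d1, which presents lipids to NKT cells, had 15.3 and 15.5 RPKM in WT and 6.42 and 6.54 RPKM in JMJD1B-/- HSPCs. Both replicates of each genotype lay close together, the JMJD1B-/- mean was 42.1% of the WT mean, and the log2 fold change was −1.24 (SE 0.22, limma unadjusted p = 0.000715, adjusted p = 0.162). Leaving out any one library gave −1.25 to −1.22, at unadjusted p-values up to 0.0171. Its copy Cd1d2 had 6.42 and 6.93 RPKM in WT and 2.67 and 2.68 RPKM in JMJD1B-/- HSPCs, with a log2 fold change of −1.28 (limma unadjusted p = 0.00338, and 0.0598 without WT replicate 2). The ratio of Cd1d1 to Cd1d2 was 2.23 to 2.44 in the 4 libraries, and since the genes are close copies, their 2 calls may rest partly on the same reads. Of 4 MHC-like genes tested, Mr1 (log2 fold change 0.20) and Fcgrt (−1.04) were not called. Among 6 other costimulation ligands, Cd48 alone was lower, with 37.7 and 51.0 RPKM in WT and 34.2 and 23.8 RPKM in JMJD1B-/- HSPCs, a log2 fold change of −0.62 (SE 0.25, limma unadjusted p = 0.0392, and 0.269 and 0.138 without WT replicate 2 and JMJD1B-/- replicate 2). The log2 fold change without the latter was −0.36.

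**Figure D5:**
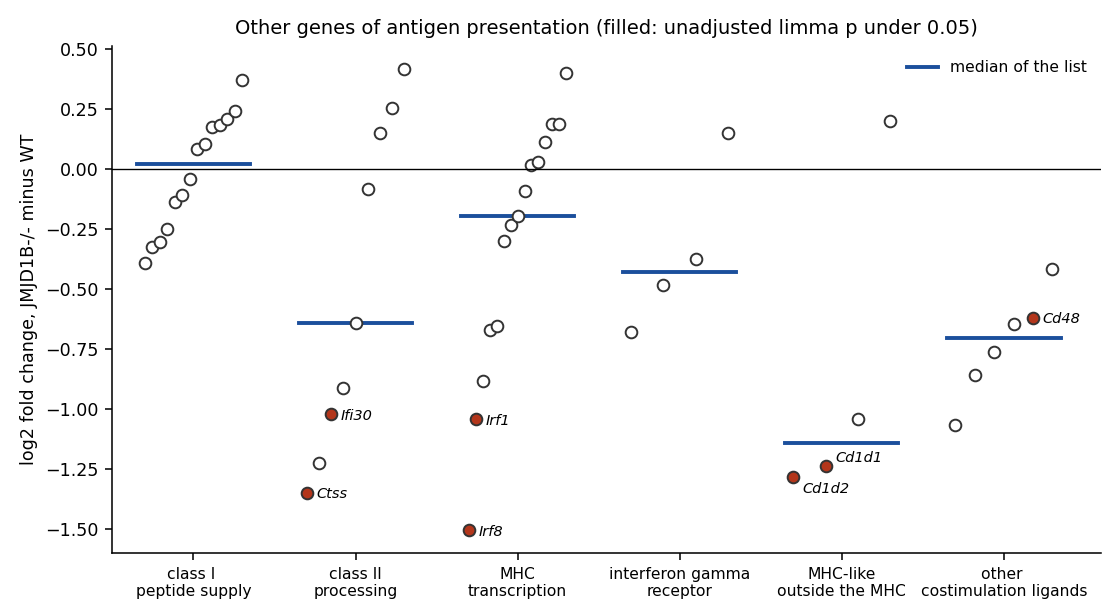
Log2 fold change, JMJD1B-/- minus WT, on the log2(RPKM + 0.1) scale (vertical axis) of 52 other genes of antigen presentation in 6 lists (horizontal axis), ordered by size within each list. Points are genes, filled points have an unadjusted limma p under 0.05 and are named, and lines are medians of the lists. The 7 filled points are all below 0, and class I peptide supply has a median of 0.02.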

How the data were processed

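Polyadenylated RNA of WT and JMJD1B-/- HSPCs was sequenced by the authors, who deposited 1 table of RPKM values with 1 added to each. TopHat2, Novoalign and mm9 are named in the submitters' processing notes, and the counting program and annotation are not given in the sources used here. The 1 was subtracted, and entries of one name were averaged over 12024 entries (no member had more than 1). Depth was estimated from whole-number ratios of low values in 280 genes, 38 of which gave the same depth (at most 4 gave any other). A mean of 0.5 RPKM was required of a tested gene. limma 3.58.1 (R 4.3.3) was run on log2(RPKM + 0.1) with eBayes and a trend, two-sided, without a replicate term and with Benjamini-Hochberg adjustment over all genes. limma replaced the study's Student test, kept as the gene-by-gene alternative. It was tested on simulated data. Other steps used Python 3.11.15, pandas 2.3.3, numpy 2.4.6 and matplotlib 3.10.9. The members and lists were chosen with earlier results of these data known. Every member is named, with full statistics for those at an unadjusted p under 0.05 or with groups apart and a log2 fold change of at least 1 in size. Listed genes at an unadjusted p under 0.05 and the 5 genes nearest to H2-Aa are also named. Alternatives were pseudocounts of 1 and 0.01, a required mean of 1 RPKM or none, quantile normalization, median-ratio scaling, a replicate block, limma without trend, the gene-by-gene test, summed entries and leaving out each library. ChIP-seq samples were not used here.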

Additional observations from a re-analysis of the deposited data

How the results depend on the processing

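With each library left out, in fits where a lone library is assumed to vary like the pair, the genes called ranged from 177 to 1819 lower (751 with all libraries) and from 123 to 1258 higher (452). Members called ranged from 1 to 9 lower and 0 to 5 higher, those at an adjusted p under 0.05 from 0 to 3, and listed pathway genes from 2 to 16 lower and 0 to 2 higher. The medians ranged from −0.0095 to 0.21 for class I, from −0.97 to −0.24 for class II and from −0.09 to 0.11 for class I partners, and Kdm3b from −2.82 to −2.47. Over all genes the median shifted to 0.09 when JMJD1B-/- replicate 1 was left out and to −0.10 when JMJD1B-/- replicate 2 was.

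No member was higher in limma without the trend (0) or in the gene-by-gene test (0), and 1 pathway gene was higher in the latter; the cause was not tested. Quantile normalization reversed Tap1 (−0.0175), H2-Eb1 (0.29) and H2-T23 (−0.0187), and median-ratio scaling reversed H2-D1 (0.0032).

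With a library left out, 21 members reversed in at least 1 set, and their log2 fold changes ranged as follows: Cd74 from −1.35 to 0.10, Tapbp from −0.11 to 0.0639, H2-K1 from −0.0111 to 0.36, H2-Ke6 from −0.79 to 0.42, Tap1 from −0.12 to 0.15, H2-Ob from −0.44 to 0.11, H2-Eb1 from −0.59 to 0.52, H2-D1 from −0.24 to 0.22, H2-Q1 from −0.10 to 0.22, H2-Q4 from −0.52 to 0.32, H2-Q8 from −0.67 to 0.94, H2-Q6 from −0.38 to 0.60, H2-Q7 and H2-Q9 from −0.33 to 0.61, H2-Q10 from −0.0463 to 0.13, H2-T24 from −0.62 to 0.0136, H2-T23 from −0.21 to 0.32, H2-T9 and H2-T22 from −0.20 to 0.15, H2-Bl from −0.23 to 0.33 and Nlrc5 from −1.06 to 0.54.

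Same-numbered libraries share a number in the labels, which state no pairing. Across genes, the correlation of their deviations from the group means was −0.05. With 2 libraries per genotype, this value cannot tell whether they shared a batch. With the replicate block, 914 genes were lower and 571 higher, members numbered 4 lower and 1 higher, H2-Aa and H2-Ab1 passed at an unadjusted limma p under 0.05 and H2-M3 did not (unadjusted p = 0.0831). Depth limits the genes of few reads, such as H2-M5, which is listed at 0 in JMJD1B-/- replicate 1.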
